A study of Bos taurus with 18 samples.

Results

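The miR-181 family comprised 4 mature miRNAs in these data, bta-miR-181a, bta-miR-181b, bta-miR-181c and bta-miR-181d (written below without the bovine prefix). They were taken by name from 824 miRNAs counted in papillae of the rumen, the fermentation chamber of the bovine stomach. All 4 passed the filter on low counts and were among the 468 miRNAs tested. The small RNA libraries came from biopsies of 9 non-lactating Holstein cows with a rumen cannula. HG_PHY (4 libraries) and HG_CON (5 libraries) were taken on high grain, a diet with 65% concentrate, from cows given the supplement labelled PHY and from control cows. FD_PHY (4 libraries) and FD_CON (5 libraries) were taken earlier, on forage alone, from cows of the same arms. The sources used here do not give the meaning of PHY, the cows' ages, the length of each feeding period, or whether PHY was already fed on forage. Because grain always followed forage, diet and time cannot be told apart, and PHY and CON libraries came from different cows. In bulk tissue, fewer cells of a type and less RNA per cell cannot be told apart either.

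miRNAs guide Argonaute proteins to messenger RNAs, mainly through the seed near their 5′ end, and thereby lower the output of those messengers. The members of the miR-181 family share the same seed and differ only outside it, so that their predicted targets largely overlap. In mouse, miR-181a is known for setting the sensitivity of the T cell receptor during thymocyte development. miR-181b is known in mouse and human endothelium for limiting NF-κB signalling through importin-α3, miR-181c in rat heart for acting on a mitochondrial transcript, and miR-181d in human glioma cells for targeting MGMT. The family is transcribed from paired hairpins. In the files, miR-181a was placed at bta-mir-181a-1 on chromosome 16 in 12 libraries and at bta-mir-181a-2 on chromosome 11 in 6. These copies share 1 mature name and cannot be told apart. miR-181b was placed at bta-mir-181b-2 on chromosome 11 in all 18, with a mature start 1192 nt from that of bta-mir-181a-2. miR-181c and miR-181d both lay on chromosome 7, with mature starts 182 nt apart. The sources used here do not give the genome build of these positions. In the RefSeq gene table (ARS-UCD2.0) 0 other genes start between the 2 hairpins of any of the 3 pairs.

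The libraries held 5.74 to 15.2 M reads, with each read counted once per miRNA, and the family took 0.124% ± 0.0291 of them (SD, n = 18). Levels below are CPM, raw counts scaled to a common library total with TMM, edgeR's correction for library composition. The order of the members was the same in all 18 libraries by raw count. bta-miR-181a averaged 1062 ± 263 CPM (SD, n = 18), which placed it at rank 73 of the 468 miRNAs. bta-miR-181b averaged 133 ± 19.1 CPM (rank 147), bta-miR-181c 37.4 ± 8.27 CPM (rank 196) and bta-miR-181d 12.4 ± 3.01 CPM (rank 264). Neighbours in this order did not overlap. The lowest miR-181a library stood at 563 CPM and the highest miR-181b library at 167 CPM. The lowest miR-181b library stood at 101 CPM and the highest miR-181c library at 51.9 CPM, and the lowest miR-181c library at 21.7 CPM and the highest miR-181d library at 16.8 CPM. These levels are not corrected for reads shared between names. miR-181a rested on 3691 to 15578 reads per library, and miR-181d on 65 to 170 reads, for which counting alone gives an error of 7.67% to 12.4%.

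The authors give a raw and an adjusted count, and miR-181c came level with miR-181b only by adjusted counts of the bovine names alone. The file headers mark the adjustment as one for multiple mapping, and the sources used here do not state its rule. For miR-181c the adjusted count was 100% of the raw count in every library, for miR-181d it was 50%, for miR-181a 33.3% to 33.4%, and for miR-181b 26.2% to 28.1%. By raw counts, miR-181b exceeded miR-181c in 18 of 18 libraries and took 11.0% ± 1.77 of the family's reads against 3.03% ± 0.391 for miR-181c (SD, n = 18). By adjusted counts of the bovine names alone it exceeded miR-181c in 10 of 18, with 8.57% ± 1.41 against 8.68% ± 1.04. miR-181a remained the main member either way, with 84.9% ± 1.99 of raw and 81.3% ± 2.02 of adjusted counts of the bovine names. A human name for miR-181a, miR-181b and miR-181d was also listed, with almost the same reads (for miR-181a 182104 reads over all libraries, against 182114 for the bovine name). Each such pair was treated as 1 miRNA under its bovine name, so the adjusted counts here leave out those under the human name. For miR-181b these came to 6147 over all libraries, beside 6178 under the bovine name. miR-181c had no human name listed and an adjusted total of 6402. With both names counted, miR-181b therefore also exceeded miR-181c by adjusted counts over all libraries together. Within a member, the adjusted share of the raw count was nearly the same in every library.

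The main comparison asked how the members differed between high grain and forage over both arms. The mean levels of miR-181a and miR-181c were lower on grain, while miR-181b and miR-181d differed by less than their errors, and none of the 4 passed the test adjusted over all miRNAs. miR-181a had a lowest, median and highest level of 563, 823 and 1411 CPM on high grain, against 836, 1163 and 1447 CPM on forage (n = 9 each). The groups overlapped, with 5 of 9 grain libraries below every forage library. Its log2 change was -0.38 ± 0.13 (SE), with an unadjusted p of 0.00715 and an adjusted p of 0.221 in edgeR's quasi-likelihood test. miR-181c had 21.7, 30.7 and 45.2 CPM on high grain, against 27.8, 40.7 and 51.9 CPM on forage. Here 2 of 9 grain libraries lay below every forage library, and the log2 change was -0.32 ± 0.13 (edgeR, unadjusted p = 0.0199, adjusted p = 0.317). miR-181b had 101, 124 and 165 CPM on high grain, against 119, 137 and 167 CPM on forage, a log2 change of -0.08 ± 0.10 (edgeR, adjusted p = 0.823). miR-181d, the scarcest member, had 9.42, 13.1 and 16.8 CPM on high grain, against 7.32, 11.2 and 16.7 CPM on forage, a log2 change of 0.15 ± 0.17 (edgeR, adjusted p = 0.820). Of the 468 miRNAs, 6.41% were lower on grain at an unadjusted p under 0.05, and 2 of the 4 members were. At an adjusted p under 0.05, edgeR called 1 of the 468 (0.214%) as higher, which was no member, and 0 as lower. The intervals of 2 SE to each side reached from -0.29 to 0.12 for miR-181b and from -0.20 to 0.50 for miR-181d, so changes of that size are not shown to be absent.

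**Figure D1:**
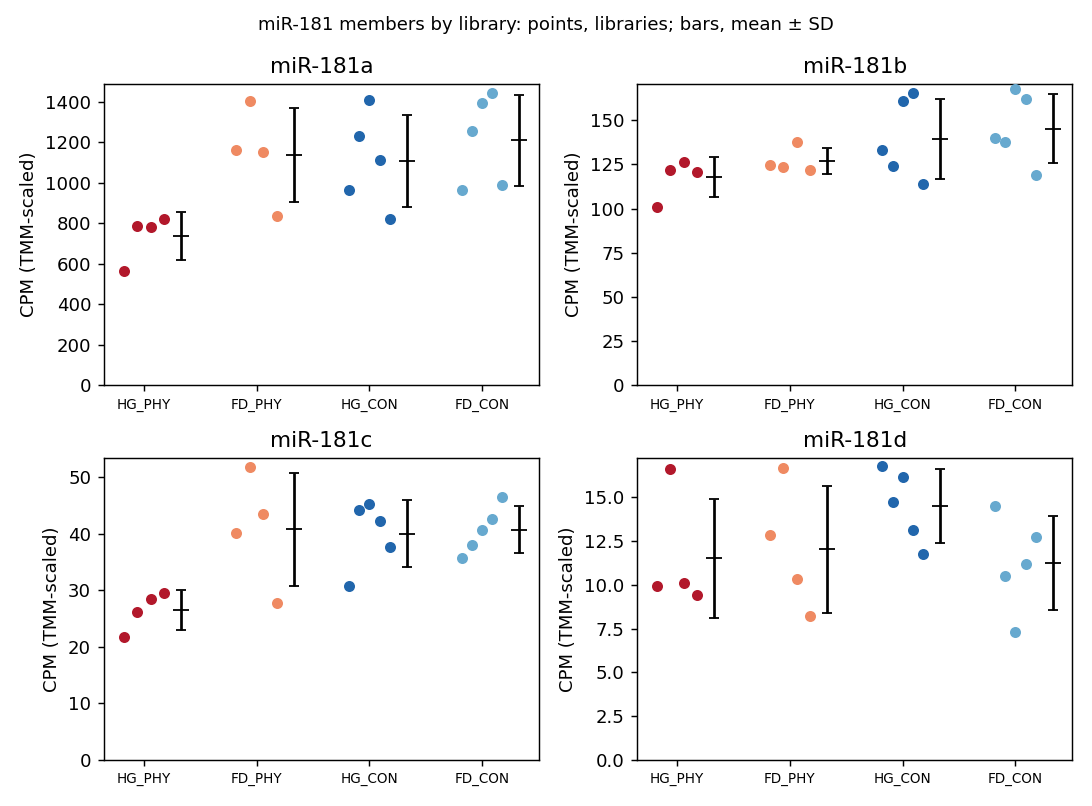
Level of each member (CPM, linear axis from 0) in every library of HG_PHY, FD_PHY, HG_CON and FD_CON. Points are libraries and the bar beside them is the mean ± SD. For miR-181a the 4 HG_PHY libraries sit between 563 and 823 CPM, and for miR-181c between 21.7 and 29.6 CPM, at the low end of each panel.

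In cows of the PHY arm the fitted levels on grain were 35.2% lower for miR-181a and 35.1% lower for miR-181c than on forage, and neither passed the adjusted test. miR-181a stood at 563, 785, 782 and 823 CPM in the HG_PHY libraries, against 1163, 1403, 1155 and 836 CPM in the FD_PHY libraries. All 4 grain libraries were below all 4 forage libraries, the nearest being 823 and 836 CPM. The log2 change was -0.63 ± 0.19 (edgeR, unadjusted p = 0.00332, adjusted p = 0.375), the third lowest p of the 468. miR-181c stood at 21.7, 26.1, 28.5 and 29.6 CPM in HG_PHY, against 40.1, 51.9, 43.5 and 27.8 CPM in FD_PHY. The groups overlapped through FD_PHY 4, the lowest forage library of this arm for both members. The log2 change of miR-181c was -0.62 ± 0.19 (edgeR, unadjusted p = 0.00400, adjusted p = 0.375). miR-181b was at 101, 122, 126 and 121 CPM in HG_PHY, against 125, 124, 137 and 122 CPM in FD_PHY, a log2 change of -0.11 ± 0.15 (edgeR, adjusted p = 0.979). miR-181d was at 9.92, 16.6, 10.1 and 9.42 CPM in HG_PHY, against 12.9, 16.7, 10.4 and 8.21 CPM in FD_PHY, a log2 change of -0.06 ± 0.26 (edgeR, adjusted p = 0.988). For miR-181b and miR-181d the groups overlapped, and those of miR-181d spanned nearly the same range. Over all miRNAs tested, 3.42% were lower at an unadjusted p under 0.05 and 2.78% had all HG_PHY below all FD_PHY libraries, against 2 and 1 of the 4 members. edgeR called 0 of the 468 at an adjusted p under 0.05, and 33 had an unadjusted p under 0.05. Limma-voom with quality weights called 1, which was no member, and DESeq2 called 0. Summed lymphoid and pan-leukocyte, endothelial and muscle markers were each also lower in all 4 HG_PHY than in all 4 FD_PHY libraries. The myeloid miR-223 was not (values with the marker lists). The part of these markers in the differences was not tested.

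In control cows the intervals of all 4 members included 0. miR-181a stood at 964, 1232, 1411, 1115 and 822 CPM in the HG_CON libraries, against 966, 1257, 1396, 1447 and 991 CPM in the FD_CON libraries, and the groups shared most of their range (log2 change -0.13 ± 0.17; edgeR, adjusted p = 0.898). miR-181c stood at 30.7, 44.2, 45.2, 42.2 and 37.6 CPM in HG_CON, against 35.6, 38.1, 40.7, 42.6 and 46.6 CPM in FD_CON, a log2 change of -0.02 ± 0.17 (edgeR, adjusted p = 0.996). miR-181b had a log2 change of -0.06 ± 0.14, at 139 ± 22.7 CPM in HG_CON and 145 ± 19.7 CPM in FD_CON (SD, n = 5 each; edgeR, adjusted p = 0.953). miR-181d ran the other way, at 16.8, 14.8, 16.2, 13.1 and 11.8 CPM in HG_CON, against 14.5, 10.5, 7.32, 11.2 and 12.7 CPM in FD_CON. All 5 grain libraries were above the forage mean and 3 of 5 above every forage library, with a log2 change of 0.37 ± 0.23 (edgeR, unadjusted p = 0.130, adjusted p = 0.702). At an unadjusted p under 0.05, 6.84% of all miRNAs were lower and 3.85% higher, against 0 of the 4 members in either direction. Neither edgeR nor DESeq2 called any of the 468 in this comparison (0 called by each), and 50 had an unadjusted p under 0.05 in edgeR.

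Whether the diet effect differed between the arms was tested as an interaction, in which a negative value means a lower grain level relative to forage in PHY than in CON. It was -0.50 ± 0.25 for miR-181a (edgeR, unadjusted p = 0.0612), -0.60 ± 0.26 for miR-181c (unadjusted p = 0.0300), -0.05 ± 0.20 for miR-181b (unadjusted p = 0.806) and -0.43 ± 0.35 for miR-181d (unadjusted p = 0.233). The adjusted p by edgeR was 0.997 for each. At an unadjusted p under 0.05, 4 of the 468 miRNAs (0.855%) had a negative interaction, miR-181c among them, and 10 had one of either sign. After adjustment 0 passed in edgeR and 0 in DESeq2. A difference between the arms in the response of the family was therefore not shown.

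On high grain, the mean levels of miR-181a and miR-181c were lower in PHY than in control cows, again with 0 members past the adjusted test. This comparison uses the same HG_PHY libraries as that between diets in PHY cows, given above, and is not independent of it. For miR-181c all 4 HG_PHY libraries (21.7 to 29.6 CPM) were below all 5 HG_CON libraries (30.7 to 45.2 CPM), and the log2 difference was -0.59 ± 0.18 (edgeR, unadjusted p = 0.00399, adjusted p = 0.286). For miR-181a the highest HG_PHY library (822.7 CPM) and the lowest HG_CON library (822.3 CPM) met, and the log2 difference was -0.59 ± 0.18 (edgeR, unadjusted p = 0.00380, adjusted p = 0.286). The differences of miR-181b (-0.25 ± 0.14) and miR-181d (-0.33 ± 0.25) had the same sign and unadjusted p-values of 0.105 and 0.194 in edgeR. Of all miRNAs, 2.14% were lower in PHY at an unadjusted p under 0.05 and 0.427% did not overlap on the lower side, against 2 and 1 of the 4 members. After adjustment edgeR called 0 of the 468, 32 had an unadjusted p under 0.05, and DESeq2 called 2 that are no members.

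On forage the 4 members differed between the arms by less than their errors or by little more. The log2 difference of PHY from CON was -0.09 ± 0.18 for miR-181a, -0.20 ± 0.14 for miR-181b, 0.00 ± 0.18 for miR-181c and 0.10 ± 0.25 for miR-181d, with adjusted p-values of 0.929 to 0.997 in edgeR. miR-181a was at 1139 ± 233 CPM in FD_PHY (SD, n = 4) and 1211 ± 224 CPM in FD_CON (SD, n = 5), and miR-181c at 40.8 CPM in FD_PHY and 40.7 CPM in FD_CON. Of the 468 miRNAs, 2.56% were lower in PHY at an unadjusted p under 0.05, and 0 of the 4 members were. By adjusted p edgeR called 0 miRNAs and DESeq2 1 that is no member, and 22 had an unadjusted p under 0.05 in edgeR.

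**Figure D2:**
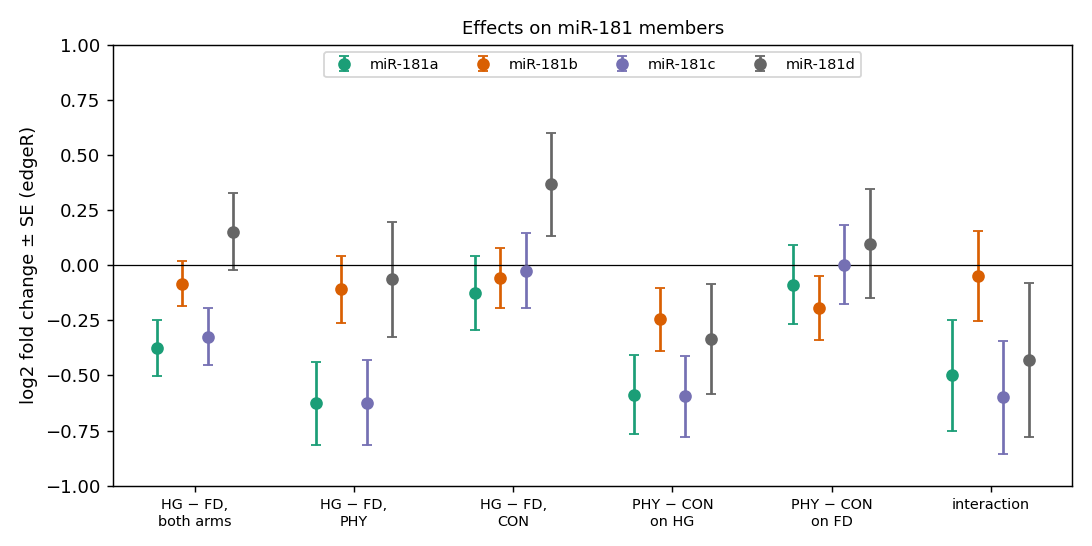
Log2 fold change ± SE (edgeR) of each member in the 6 comparisons, with the group named first minus the one after it. miR-181a and miR-181c lie together at about -0.6 for the diet difference in PHY cows (-0.63 and -0.62) and for PHY against CON on high grain (-0.59 each), while miR-181b lies closer to 0 in both.

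The a/b and c/d hairpin pairs were compared through ratios within a library, which need no scaling between libraries. The summed CPM of miR-181a and miR-181b was 856 ± 129 in HG_PHY, 1266 ± 234 in FD_PHY, 1248 ± 244 in HG_CON and 1356 ± 241 in FD_CON. That of miR-181c and miR-181d was 37.96 ± 4.63 in HG_PHY, 52.8 ± 13.3 in FD_PHY, 54.5 ± 5.996 in HG_CON and 51.9 ± 4.66 in FD_CON (SD, n = 4 for PHY and n = 5 for CON groups). The quotient of the a/b sum by the c/d sum was 22.5 ± 1.59 in HG_PHY, 24.3 ± 1.79 in FD_PHY, 22.8 ± 2.38 in HG_CON and 26.4 ± 5.78 in FD_CON. By adjusted counts of the bovine names alone it was 8.59 ± 0.395 in HG_PHY, 8.97 ± 0.633 in FD_PHY, 8.59 ± 0.964 in HG_CON and 9.64 ± 1.94 in FD_CON. These counts leave out the human names of miR-181a, miR-181b and miR-181d, while miR-181c has none. The size of this quotient is therefore not comparable with that by raw counts. The group ranges overlapped in each comparison by either count. The share of a/b in the family was 94.9% to 97.0% of raw counts over the 18 libraries. Of adjusted counts it was 87.3% to 92.0%, again with the human names left out.

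Ratios between single members were compared in the same way. The ratio of miR-181a to miR-181c, which lie on different chromosomes, was 27.7 ± 2.95 on high grain and 29.1 ± 4.22 on forage (SD, n = 9 each). In the PHY arm it was 25.9, 30.1, 27.4 and 27.8 in HG_PHY, against 28.95, 27.02, 26.5 and 30.05 in FD_PHY. Both groups spanned nearly the same values. The difference in its mean log2 was -0.06 ± 0.09 over both arms (two-sided exact permutation p = 0.495) and -0.02 ± 0.06 in PHY cows (exact permutation p = 0.800). The ratio of miR-181a to its neighbour miR-181b was lower in HG_PHY, at 5.57, 6.43, 6.18 and 6.80, against 9.32, 11.4, 8.399 and 6.86 in FD_PHY. The 4 grain libraries lay below the 4 forage libraries, the closest pair being 6.80 and 6.86. Its log2 difference in PHY cows was -0.50 ± 0.16 (exact permutation p = 0.0286, the smallest that 70 arrangements can give, and 0.114 adjusted over the 6 pairs of members), and over both arms -0.26 ± 0.11 (exact permutation p = 0.0338, adjusted 0.0675).

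Of the 3 ratios to miR-181d, those of miR-181a and miR-181c differed between diets over both arms when adjusted over the 6 pairs, and that of miR-181b did not. The ratio of miR-181a to miR-181d had a lowest, median and highest value of 47.1, 77.0 and 87.0 on high grain, against 66.4, 101 and 189 on forage, a log2 difference of -0.54 ± 0.19 (n = 9 each; exact permutation p = 0.00823, adjusted 0.0264). That of miR-181c to its neighbour miR-181d had 1.57, 2.81 and 3.21 on high grain, against 2.45, 3.62 and 5.53 on forage, a log2 difference of -0.48 ± 0.17 (exact permutation p = 0.00880, adjusted 0.0264). Both ratios overlapped between diets. For miR-181b over miR-181d the log2 difference was -0.28 ± 0.19 (exact permutation p = 0.160, adjusted 0.192). Adjusted over all 30 ratio tests of the 5 comparisons, none passed (0.132 each for miR-181a and miR-181c over miR-181d). Leaving out FD_CON 3, FD_CON 4, FD_PHY 3, HG_CON 1, HG_PHY 1 or HG_PHY 2 also ended the calls of those 2 ratios, with adjusted exact permutation p-values of at most 0.0600, and the log2 differences stayed below 0 in each case. FD_CON 3 held the lowest miR-181d count relative to depth, with 71 reads. In the other comparisons 0 of 6 pairs passed, and the smallest adjusted exact permutation p was 0.114 in PHY cows, 0.270 in control cows, 0.119 for PHY against CON on high grain and 0.675 on forage. With 70 arrangements in PHY cows, 1 pair alone could not pass after adjustment over 6.

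**Figure D3:**
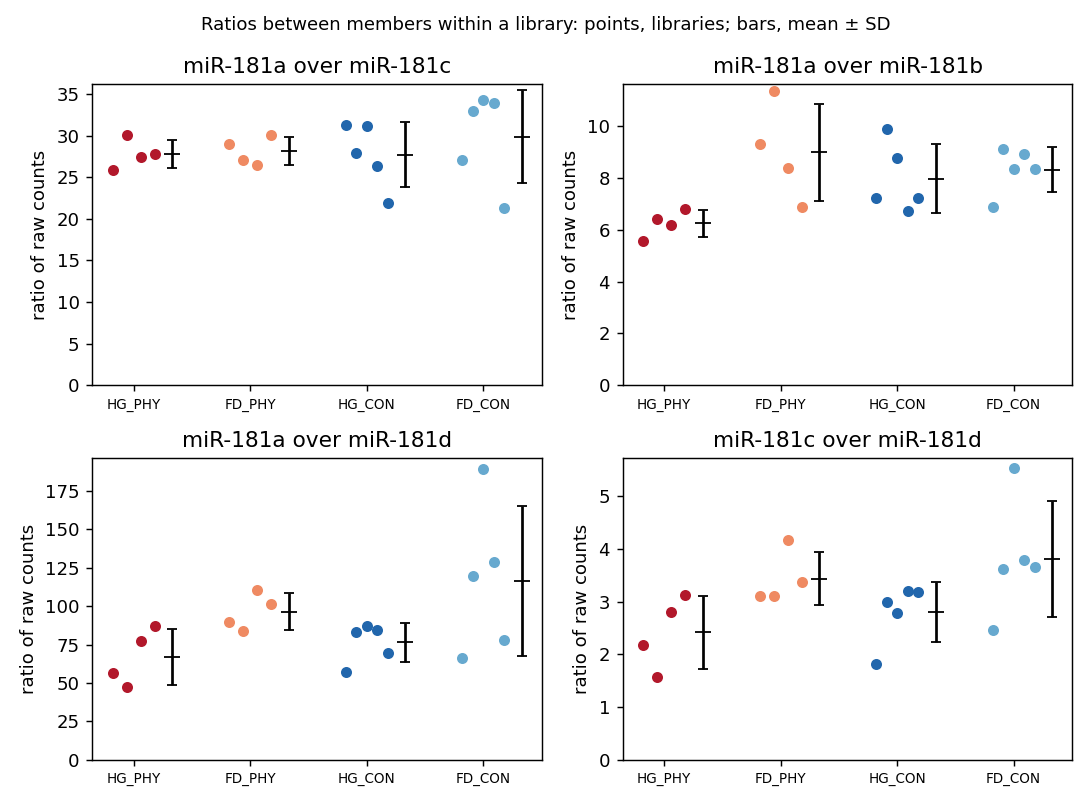
Ratios of raw counts between members within each library (linear axes from 0), by group, with the mean ± SD beside the points. The ratio of miR-181a to miR-181c stays between 21.3 and 34.2 in all groups, while that of miR-181a to miR-181b is between 5.57 and 6.80 in HG_PHY and reaches 11.4 in FD_PHY.

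Across the 18 libraries, which share 9 cows and the diet groups, the log2 CPM of miR-181a went most closely with that of miR-181c (Pearson r = 0.87), then miR-181b (0.74), and little with miR-181d (0.18). miR-181b and miR-181c gave 0.50, miR-181c and miR-181d 0.28, and miR-181b and miR-181d -0.01. With the group means removed, r was 0.72 for miR-181a with miR-181c, 0.67 for miR-181a with miR-181b and 0.30 for miR-181c with miR-181d. These values are descriptions, and those of miR-181d rest on its 65 to 170 reads per library.

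**Figure D4:**
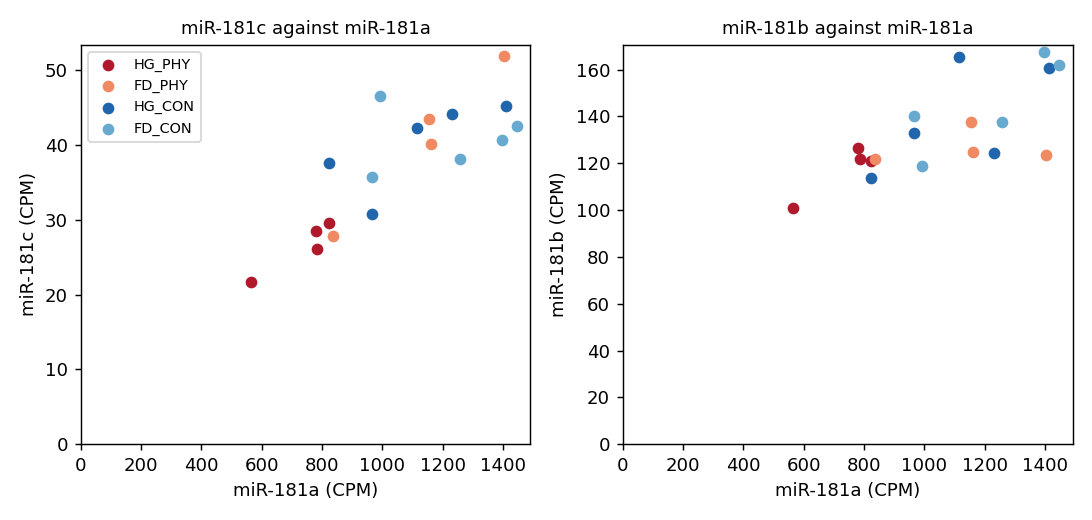
miR-181c (left) and miR-181b (right) against miR-181a, in CPM on linear axes from 0, with 1 point per library coloured by group. The HG_PHY libraries lie at the low end of the left panel for both members, while in the right panel they overlap the others in miR-181b (101 to 126 CPM).

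Outside the family, miRNAs that averaged 10 CPM or more were ranked by likeness to a member. The 5 whose log2 CPM went most closely with miR-181a over the 18 libraries were miR-146a (r = 0.83), a feedback inhibitor of NF-κB signalling, miR-130a (0.82), miR-2285bf (0.81), miR-195 (0.78) and hsa-miR-194-5p (0.78). For miR-181c they were hsa-miR-194-5p (0.76), miR-342 (0.74), miR-29a (0.73), miR-2285bf (0.72) and miR-148b (0.68). These correlations were taken with the diet groups left in. For miR-146a, the closest to miR-181a by Pearson r, the log2 change between diets was -0.75 ± 0.20 in PHY cows (edgeR, unadjusted p = 0.00113, adjusted p = 0.264) and -0.31 ± 0.18 in control cows (adjusted p = 0.597). By Spearman correlation miR-130a was closer (0.83 against 0.81). The others near miR-181a had smaller changes in PHY cows, of -0.20 (miR-130a), -0.32 (miR-2285bf), -0.27 (miR-195) and -0.10 (hsa-miR-194-5p). miR-195 and miR-29a had log2 changes of -0.28 ± 0.11 and -0.26 ± 0.09 over both arms, and miR-130a -0.09 ± 0.14.

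The family was set beside a list of 16 other inflammation and immune miRNAs, all of them tested. This list includes the lymphoid and pan-leukocyte miRNAs and miR-223 used below as markers. It and the marker lists were chosen with earlier results of these data known, so their counts beside those of all miRNAs are descriptions only. On high grain against forage over both arms 14 of the 16 had a log2 change below 0, against 50.9% of all miRNAs (median -0.15, against -0.01 over all 468). Of these, 4 were lower at an unadjusted p under 0.05, against 6.41% of all miRNAs, and 0 passed after adjustment in edgeR. The 4 were miR-146a (-0.53 ± 0.13), miR-125b (-0.43 ± 0.13), miR-125a (-0.40 ± 0.12) and miR-342 (-0.28 ± 0.10). The myeloid miR-223 had a log2 change of 0.48 ± 0.20, above 0. In PHY cows 12 of 16 were below 0, against 49.4% of all (median -0.16, against 0.01 over all). In control cows 11 of 16 were below 0, against 53.8% of all (median -0.16, against -0.02 over all). In each arm 4 were lower at an unadjusted p under 0.05 in edgeR, against 3.42% of all in PHY and 6.84% in control cows. For PHY against CON on high grain 6 of 16 were below 0, against 49.8% of all (median 0.04, against 0.00).

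In the PHY arm, the log2 changes of the lymphoid and pan-leukocyte markers were below 0 on grain, as those of miR-181a and miR-181c were. None of them passed the adjusted test. The myeloid miR-223 went the other way there, with a log2 change of 0.60 ± 0.30. In PHY cows the 5 of 5 lymphoid and pan-leukocyte miRNAs (miR-155, miR-150, miR-142-3p, miR-342 and miR-142-5p) were below 0, against 49.4% of all miRNAs, with a median log2 change of -0.40. Of the 5, 3 were lower at an unadjusted p under 0.05, against 3.42% of all, and 0 passed after adjustment in edgeR. The 3 were miR-142-3p (-0.52 ± 0.20), miR-342 (-0.40 ± 0.14) and miR-142-5p (-0.41 ± 0.16), while miR-150 was at -0.10 ± 0.24 and miR-155 at -0.21 ± 0.15. In control cows 3 of 5 were below 0 (median -0.02). Their summed level ranged from 3205 to 3548 CPM in HG_PHY, against 3729 to 5253 CPM in FD_PHY, without overlap. It ranged from 3224 to 5300 CPM in HG_CON, against 3597 to 4225 CPM in FD_CON. This sum was mostly miR-142-5p, at a mean of 2194 CPM, with miR-342 next at 716 CPM. Singly, miR-142-5p and miR-342 did not overlap between HG_PHY and FD_PHY, while miR-150, miR-155 and miR-142-3p did. The summed endothelial markers (miR-126-3p and miR-126-5p, 2 of 2 below 0) ranged from 9452 to 12984 CPM in HG_PHY, against 13013 to 14857 CPM in FD_PHY, and the 4 muscle markers (4 of 4 below 0) from 102603 to 112167 CPM in HG_PHY, against 129264 to 166117 CPM in FD_PHY. The groups of both sums did not overlap. Singly, however, miR-126-3p and miR-126-5p each overlapped between HG_PHY and FD_PHY, and so did miR-145, miR-1 and miR-133a. Of these endothelial and muscle markers only miR-143 had all HG_PHY below all FD_PHY libraries. Of all single miRNAs, 2.78% had all HG_PHY below all FD_PHY libraries. The muscle sum was mostly miR-143, at a mean of 133130 CPM, with miR-145 next at 4504 CPM. The endothelial sum was mostly miR-126-3p, at 11260 CPM, against 2176 CPM for miR-126-5p. In control cows the muscle sum did not overlap either, at 103190 to 133027 CPM in HG_CON, against 138597 to 297898 CPM in FD_CON (4 of 4 below 0). In that arm 2 of the 468 single miRNAs were lower on grain without overlap. The endothelial sum overlapped there, at 11568 to 14189 CPM in HG_CON, against 13366 to 16158 CPM in FD_CON (2 of 2 below 0). In PHY cows the 6 epithelial markers were above 0 in 6 of 6, against 50.6% of all miRNAs, and 0 had an unadjusted p under 0.05 in edgeR. Their sums overlapped, at 53921 to 66626 CPM in HG_PHY and 52551 to 58036 CPM in FD_PHY. In control cows 1 of the 6 was above 0 and 5 were below (median log2 change -0.04). The 3 erythroid markers had log2 changes in PHY cows of 0.05 ± 0.33 (miR-451), 0.15 ± 0.31 (miR-486) and 0.01 ± 0.36 (miR-144). Each was smaller than its error, and their sums overlapped, at 6415 to 16870 CPM in HG_PHY and 7299 to 12361 CPM in FD_PHY. The myeloid miR-223 ranged from 333 to 564 CPM in HG_PHY and from 157 to 373 CPM in FD_PHY. None of these markers was at 0, and their part in the differences of miR-181a and miR-181c was not tested.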

How the data were processed

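Small RNA of rumen papillae was extracted with a NucleoSpin miRNA kit and made into NETflex libraries, per the labels' protocols. Of software, bcl2fastq 2.20 and DESeq2 appear in the submitters' processing notes, with no role stated. Aligner, counter and build: not given in the sources used here. For each of 966 names, the deposited files hold, per the file headers, the raw read count, the number of distinct read sequences, the authors' expected count, a read count adjusted by a rule not stated there, and RPM, a signal that served here only for read totals (19.5 to 42.7 M reads, 27.0% to 48.6% of them assigned to miRNAs). A deposited table of scaled values was not used here.

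Names whose positions overlapped by 15 nt or more were merged, as were bovine and human names of 1 miRNA whose totals lay within 5%, and the name with the most reads stood for the miRNA. The 468 miRNAs that passed filterByExpr were tested with edgeR 4.0.16 (R 4.3.3), using its quasi-likelihood test on raw counts with TMM scaling, a mean for each of the 4 groups, no term for the cow and Benjamini-Hochberg adjustment, two-sided at 0.05. Separate libraries are taken as replicates, although 18 libraries came from 9 cows. Ratios between members were computed after adding 0.5 reads and compared by exact permutation. DESeq2 1.42.0 and limma 3.58.1 served as alternatives, and the edgeR script was tested on simulated data. The members and lists were chosen with earlier results of these data known. All members were named, beside the 5 closest miRNAs to miR-181a and miR-181c and up to 4 list members with the lowest p, where a result turned on them. Sequences of the members were not used here.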

Additional observations from a re-analysis of the deposited data

Results flagged for a closer look

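Of 40 sets of 4 or 5 values (each member's CPM and each ratio between members in each group), 2 held a library set apart from the others of its group, and chance alone gives about 1 in 20. miR-181a was at 563 CPM in HG_PHY 1, the lowest of its group, where the other 3 libraries lay between 782 and 823 CPM. Without this library the log2 change of miR-181a between diets in PHY cows was -0.52 (edgeR, adjusted p = 0.708). miR-181d was at 16.6 CPM in HG_PHY 2, the highest of its group, where the others lay between 9.42 and 10.1 CPM.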

How the results depend on the processing

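The 4 members were recomputed under 656 combinations of comparison and setting. None passed the threshold in any of them, and the log2 changes of miR-181a and miR-181c between diets over both arms and in PHY cows, and between arms on high grain, stayed below 0 in each. Signs turned in 20, where the values of turned sign lay between -0.12 and 0.13. For PHY against CON on forage, miR-181c came to -0.0004657 with expected counts and -0.004824 with upper-quartile scaling. Leaving out 1 library at a time gave, for PHY against CON on forage, ranges of -0.19 to 0.044 (miR-181a), -0.12 to 0.16 (miR-181c) and -0.0817 to 0.26 (miR-181d). For the diets in control cows the ranges were -0.13 to 0.00808 (miR-181b) and -0.0904 to 0.0690 (miR-181c), for the diets in PHY cows -0.33 to 0.13 (miR-181d), and for the interaction -0.12 to 0.0146 (miR-181b).

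The number of miRNAs called between diets over both arms, 1 as reported, was 0 with expected counts, upper-quartile scaling or the filter of 10 CPM in 4 libraries, 2 with every name on its own, 3 with no filter or limma-voom, 5 with DESeq2 and 0 to 3 without 1 library (1 without FD_CON 2 or HG_PHY 3, 2 without FD_PHY 4, 3 without HG_CON 3 and 0 without any other). In PHY cows limma-voom called 1. For PHY against CON DESeq2 called 2 on high grain and 1 on forage, no filter gave 1 on forage, and leaving out 1 library gave 0 to 2 on high grain and 0 to 1 on forage. The cause was not tested.

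Ratios without 1 library ranged, between diets over both arms, from -0.62 to -0.43 (miR-181a over miR-181d), -0.55 to -0.39 (miR-181c over miR-181d) and -0.32 to -0.21 (miR-181a over miR-181b, past the threshold without FD_CON 1, FD_PHY 4, HG_CON 2 or HG_CON 3). In control cows they ranged from -0.57 to -0.28 (miR-181c over miR-181d, past the threshold without FD_CON 1) and -0.15 to 0.0476 (miR-181b over miR-181c), and in PHY cows from -0.24 to 0.11 (miR-181b over miR-181d) and -0.0572 to 0.0144 (miR-181a over miR-181c). For PHY against CON they ranged on forage from -0.36 to 0.0224 (miR-181a over miR-181d), -0.26 to 0.0342 (miR-181c over miR-181d) and -0.0268 to 0.22 (miR-181a over miR-181b), and on high grain from -0.0693 to 0.0603 (miR-181a over miR-181c, -0.00299 with 1 CPM added).

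The labels do not say that equal replicate numbers mark the same cow, and the deviations of same-numbered libraries from their group means correlated by 0.000071 to 0.41, with the own number highest in 4 of 9. With the replicate number as a block, 4 miRNAs were called between diets over both arms, none of them a member (miR-181a -0.38, adjusted p = 0.0956), and the ratios of miR-181a and miR-181c to miR-181d stayed past the threshold (exact sign-flip p = 0.0117 adjusted each). PHY and CON come from different cows and allow no such block. A fit of only the groups compared equals the full fit for the diets over both arms and the interaction and was run for the other 4 comparisons. miR-181d, at 65 to 170 reads, has the widest errors.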
